A study of Mus musculus with 12 samples.

Results

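The 10 genes of prostaglandin synthesis, breakdown and sensing named next were followed in fetal mouse gonads. Signals came from Affymetrix MTA 1.0 arrays, which hybridise 1 labelled sample each to many short probes per transcript. The genes were taken by name: Ptgds, Hpgds, Ptgs1, Ptgs2, Ptges, Ptgdr, Ptgr1, Ptger2, Ptger4 and Hpgd. Of these 10, 9 have a transcript cluster under their own symbol among 30701 named genes, each of them 1 cluster, which is the array's unit for 1 locus. Ptgs1 has no cluster under its symbol in the annotation used and is not analysed here. The gonads came from embryos at 14.5 days post coitum, on a background of mixed 129Sv and C57Bl/6J, and each array held RNA from the gonad pair of 1 embryo without the mesonephros. The 3 groups of 4 arrays were compared. XY FOXL2+ gonads carried Rosa26-CAG-LSL-Foxl2+/f together with Sf1-cre+/Tg, so that Cre, made where the Sf1 (Nr5a1) promoter is active, removes a stop cassette before Foxl2, the gene of a transcription factor of granulosa cells. XX control and XY control gonads were Rosa26+/+ and carried Sf1-Cre+/Tg as well, so the Cre transgene was common to all 12 arrays. The comparisons ask what FOXL2 does to a fetal testis, and how far the outcome lies from a fetal ovary.

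Prostaglandins are lipid signals made from arachidonic acid, which cyclooxygenases (Ptgs1, Ptgs2) turn into an unstable precursor. Terminal synthases then shape the product: Ptgds, a secreted lipocalin, and Hpgds, an intracellular enzyme of the glutathione transferase family, both make prostaglandin D, and Ptges makes prostaglandin E. Hpgd and Ptgr1 inactivate prostaglandins, and Ptgdr, Ptger2 and Ptger4 encode cell surface receptors for the D and E forms. In the fetal mouse testis Ptgds is known as a Sertoli cell gene that responds to SOX9, and prostaglandin D is known to favour Sertoli cell fate.

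Ptgds and Ptgr1 were lower in XY FOXL2+ than in XY control gonads, and the bases that precede their starts are shown because both genes passed the test in that direction. Each run gives 250 bases before the start used in the RefSeq table for build GRCm38.p6, on the minus strand, 5′ to 3′. The Ptgds window is chr2:25469750-25469999, and other annotated Ptgds transcripts begin further upstream, so it lies inside the annotated extent of the gene. The Ptgr1 window is chr4:58987079-58987328, and 53 of its bases lie inside the annotated extent of Ptgr1. Capitals mark matches, on either strand, to 3 short motifs: CAAGGTC, a core of the NR5A1 half-site, ACAAT, a core bound by SOX factors, and GTAAACA, a forkhead core.
Ptgds: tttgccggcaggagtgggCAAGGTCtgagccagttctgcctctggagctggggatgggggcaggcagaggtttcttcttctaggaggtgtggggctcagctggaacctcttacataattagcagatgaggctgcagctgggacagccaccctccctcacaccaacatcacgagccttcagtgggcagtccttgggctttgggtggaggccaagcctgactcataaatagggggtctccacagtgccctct
Ptgr1: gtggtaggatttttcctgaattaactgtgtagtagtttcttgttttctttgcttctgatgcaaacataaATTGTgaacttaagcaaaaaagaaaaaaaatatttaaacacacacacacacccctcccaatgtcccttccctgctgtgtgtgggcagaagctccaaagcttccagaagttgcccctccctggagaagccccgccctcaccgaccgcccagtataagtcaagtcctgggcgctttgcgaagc
The Ptgds window holds CAAGGTC on the strand of the gene, from 232 to 226 bases before the start. The Ptgr1 window holds ACAAT on the opposite strand, from 181 to 177 bases before the start. ACAAT also occurs in the windows of Ptges, Ptger2 and Hpgd, which had no call in XY FOXL2+ against XY controls. Neither the Ptgds nor the Ptgr1 window has GTAAACA. Among the windows of 27025 genes, 3.31% hold CAAGGTC, 28.35% ACAAT and 3.09% GTAAACA. These matches describe the letters of the windows; the motifs were chosen after the Ptgds window had been read.

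Foxl2 read 7.67, 8.62, 7.18 and 6.72 in XY FOXL2+ gonads, 8.08, 7.30, 7.14 and 7.39 in XX controls, and 5.07, 5.55, 5.44 and 5.33 in XY controls (log2 signal, replicates 1 to 4). It was higher than in XY controls by 2.20 (SE 0.33, limma adjusted p = 0.00122). Between the controls, 6 of 7 Sertoli cell markers were lower and all 7 fetal granulosa cell markers higher in XX than in XY gonads. In XY FOXL2+ gonads 6 of 7 Sertoli cell markers were lower and 3 of 7 granulosa cell markers higher relative to XY controls. Relative to XX controls 4 of 7 Sertoli cell markers were higher and 5 of 7 granulosa cell markers lower. Of all clusters 17.4% passed between the controls, in either direction. In XY FOXL2+ 7.12% passed against XY controls and 5.51% against XX controls. XY FOXL2+ replicate 1 stood apart on the second principal component, which held 14.08% of the variance. Its score was 76.88, and those of the other arrays ran from -22.63 to 22.13. The first component held 51.54%, with XX controls at -61.57 to -55.77 and XY controls at 59.94 to 66.34. On this first component XY FOXL2+ replicates 1 to 4 scored -20.34, -39.09, 21.26 and 23.13. The labels give no batch, and the p-values measure the spread between embryos. Y-linked genes that XX gonads lack (Uty, Kdm5d and Eif2s3y) still read 5.85 to 6.39 there, so that signals in this range are not shown to be more than background. Foxl2 in XY controls lay under this range.

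Ptgds fell in XY FOXL2+ gonads with a group mean between those of the controls. It read 8.20, 7.60, 9.40 and 9.53 in XY FOXL2+, 7.62, 7.62, 7.51 and 7.48 in XX controls, and 11.67, 11.73, 11.55 and 11.35 in XY controls (log2 signal, replicates 1 to 4). Every XY FOXL2+ array was below every XY control, and replicate 2 was at the level of the XX controls while replicates 3 and 4 were well above it. The change from XY controls was -2.89 (95% confidence interval -3.62 to -2.17, SE 0.33, adjusted p = 0.000166), which is 7.42-fold lower. With only the 2 groups in the fit its adjusted p was 0.00356. Without XY FOXL2+ replicate 1 the change was -2.73 (adjusted p = 0.000522). Across all clusters 4.67% were lower and 2.46% higher in this comparison at an adjusted p under 0.05, and 7.12% passed in either direction. In bulk gonads, fewer cells of a type and less RNA per cell cannot be told apart.

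**Figure D1:**
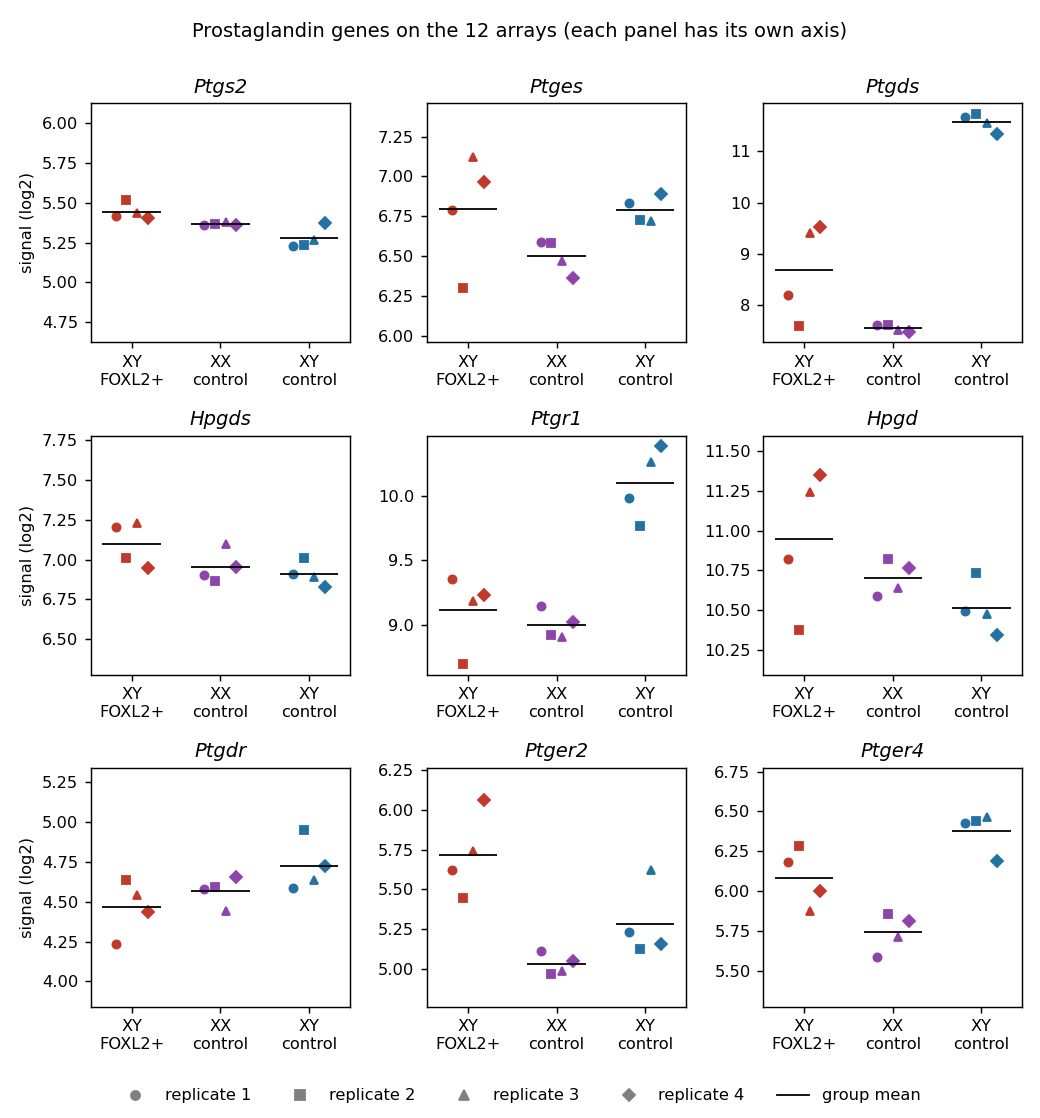
Signal (log2) of the 9 measured prostaglandin genes on each array, in XY FOXL2+, XX control and XY control gonads; points are single arrays, with a symbol for each replicate number, and lines are group means. Ptgds read 7.60 to 9.53 in XY FOXL2+ and 11.35 to 11.73 in XY controls. The SD was largest in XY FOXL2+ in every gene but Ptgs2. Over all clusters the median SD was 0.16 in XY FOXL2+, 0.12 in XX controls and 0.13 in XY controls.

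Between the controls Ptgds was 16.2-fold lower in XX than in XY gonads, a difference of -4.02 on the log2 scale (interval -4.74 to -3.29, adjusted p = 5.52e-06). The SD over 4 arrays was 0.94 in XY FOXL2+, 0.07 in XX controls and 0.17 in XY controls. The fit pools these spreads into the same SE for all 3 comparisons. Intervals that involve XY FOXL2+ may thus be too narrow, and the interval between the controls too wide. Against XX controls the XY FOXL2+ arrays were higher by 1.13 (interval 0.40 to 1.85), which did not pass (adjusted p = 0.0743, with 3 of 4 arrays above every XX control). Without XY FOXL2+ replicate 2 this difference was 1.49 (adjusted p = 0.00303), and with array weights it was 1.495 (adjusted p = 0.00295). The call thus changed when that 1 array was left out and when arrays were weighted. With only the 2 groups in the fit the adjusted p was 0.171.

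The XY FOXL2+ arrays differed among themselves in Ptgds, and the 7 Sertoli cell markers are set beside it array by array. Amh, the hormone that removes the Müllerian duct, read 6.76, 5.54, 8.21 and 7.72 on replicates 1 to 4 (log2 signal). Cst9, a cystatin gene of fetal Sertoli cells, read 11.21, 9.41, 13.41 and 13.04 on the same arrays. In both genes, as in Ptgds, replicate 2 was lowest, replicate 1 next, and replicates 3 and 4 highest. Dhh, the hedgehog ligand of Sertoli cells, read 8.07, 6.85, 8.96 and 8.74, and Sox8, a relative of Sox9, read 7.46, 7.18, 8.30 and 8.20, in a like order. Sox9, which drives Sertoli cell fate, read 9.63, 8.77, 9.67 and 9.49, lowest on replicate 2 with the other 3 close together. Aard read 7.86, 7.33, 7.99 and 7.79, also lowest on replicate 2, but with replicate 4 below replicate 1. Dmrt1, a transcription factor gene of Sertoli and germ cells, did not follow Ptgds: it read 8.55, 9.31, 9.24 and 9.41, lowest on replicate 1. Foxl2 was highest on replicate 2 and lowest on replicate 4, and with 4 arrays no relation between these genes was tested. Relative to XY controls Sox9 fell by 1.08 (adjusted p = 0.00262) and Amh by 5.48 (adjusted p = 7.3e-06). The mean level of the 7 Sertoli cell markers ran from 7.77 to 9.40 on XY FOXL2+ arrays, 6.914 to 6.996 in XX controls and 10.41 to 10.73 in XY controls. Relative to XY controls, all 4 fetal Leydig cell markers were lower in XY FOXL2+, where 4.67% of all clusters were lower. Their list levels were 7.91 to 11.17 on XY FOXL2+ arrays, 7.83 to 8.07 in XX controls and 15.78 to 16.17 in XY controls. The part of either list in the Ptgds and Ptgr1 differences was not tested.

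**Figure D2:**
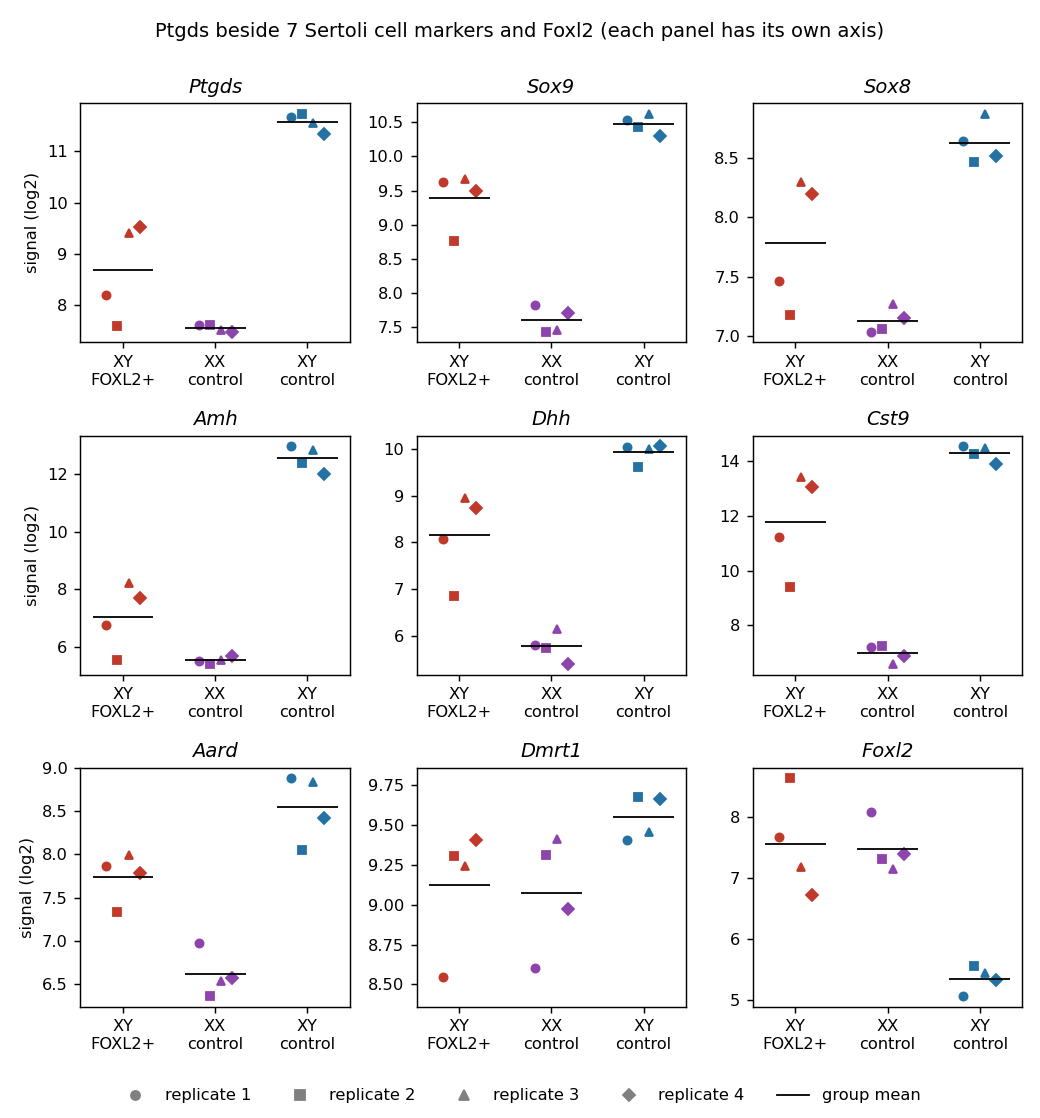
Signal (log2) of Ptgds, of 7 Sertoli cell markers and of Foxl2 on each array of the 3 groups; points are single arrays and lines are group means. XY FOXL2+ replicate 2 has the lowest signal of its group in Ptgds (7.60) and in 6 of the 7 markers, but not in Dmrt1 (9.31, with replicate 1 lowest at 8.55), and the highest in Foxl2 (8.62).

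The genes nearest to Ptgds in pattern were Inha, Casq2 and Sostdc1. Likeness was the root mean square, over the 12 arrays, of the difference between 2 genes after each had its XY control mean taken off, so it depends on the size of the group differences as well as on single arrays. Inha, which encodes the inhibin alpha chain, was at a distance of 0.208 on the log2 scale. It read 11.68, 11.74, 13.23 and 13.04 in XY FOXL2+, 11.24 to 11.83 in XX controls and 15.26 to 15.52 in XY controls. Casq2, which encodes a calcium-binding protein of the sarcoplasmic reticulum, lay at 0.286, and Sostdc1, a secreted BMP and WNT antagonist, at 0.305.

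The other D synthase, Hpgds, passed in none of the 3 comparisons. It read 7.21, 7.01, 7.23 and 6.95 in XY FOXL2+, 6.91, 6.87, 7.10 and 6.95 in XX controls, and 6.91, 7.01, 6.89 and 6.83 in XY controls. The groups overlapped in each comparison. The change in XY FOXL2+ from XY controls was 0.19 (interval 0.0011 to 0.38, adjusted p = 0.248), and from XX controls 0.14 (interval -0.04 to 0.33, adjusted p = 0.416). Between XX and XY controls it was 0.04 (interval -0.14 to 0.23, adjusted p = 0.817).

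Ptges, the inducible E synthase, had a wide spread among the XY FOXL2+ arrays and no call. It read 6.79, 6.30, 7.12 and 6.96 in XY FOXL2+, 6.59, 6.58, 6.47 and 6.36 in XX controls, and 6.83, 6.72, 6.72 and 6.89 in XY controls. The XY FOXL2+ arrays reached both above and below all XY controls, and the change was 0.0015 (interval -0.31 to 0.31, adjusted p = 0.997), with a sign that depended on which array was left out. All 4 XX controls were below all 4 XY controls, but the difference of -0.29 did not pass in the fit over all arrays (interval -0.60 to 0.02, adjusted p = 0.212). It passed without XY FOXL2+ replicate 2 (adjusted p = 0.0409) and with only the 2 control groups in the fit (adjusted p = 0.0217). Against XX controls the XY FOXL2+ arrays were 0.29 higher (adjusted p = 0.301), and 0.46 higher without XY FOXL2+ replicate 2 (adjusted p = 0.0109). Some Ptges signals in XX controls, and that of XY FOXL2+ replicate 2, lie in or near the range of Y-linked genes in XX gonads.

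Ptgs2, the inducible cyclooxygenase, passed in none of the 3 comparisons. It read 5.42, 5.52, 5.43 and 5.40 in XY FOXL2+, 5.36, 5.37, 5.38 and 5.36 in XX controls, and 5.23, 5.24, 5.27 and 5.38 in XY controls. The XY FOXL2+ arrays lay above both control groups without overlap, by a small margin: 0.17 over XY controls (interval 0.04 to 0.29, adjusted p = 0.117) and 0.08 over XX controls (interval -0.05 to 0.20, adjusted p = 0.541). These signals lie under those of Y-linked genes in XX gonads.

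Among the enzymes that inactivate prostaglandins, Ptgr1 was lower in both XY FOXL2+ and XX gonads. Ptgr1 encodes a reductase that acts on oxidised prostaglandins and on leukotriene B. It read 9.36, 8.70, 9.19 and 9.23 in XY FOXL2+, 9.14, 8.92, 8.91 and 9.03 in XX controls, and 9.99, 9.77, 10.26 and 10.38 in XY controls. All XY FOXL2+ and all XX arrays were below all XY controls. The change in XY FOXL2+ from XY controls was -0.98 (interval -1.32 to -0.64, SE 0.16, adjusted p = 0.00207), 1.97-fold lower, and in XX controls it was -1.10 (interval -1.44 to -0.76, adjusted p = 0.000295). Between XY FOXL2+ and XX gonads the difference was 0.12 (interval -0.22 to 0.46, adjusted p = 0.758). The nearest genes in pattern were Hspbap1 (distance 0.131), Vwf, the von Willebrand factor gene of endothelial cells and platelets (0.163), and Ccn4, a WNT-induced matricellular gene (0.168).

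Hpgd, the dehydrogenase that begins the breakdown of prostaglandins, had its highest signals on 2 of the XY FOXL2+ arrays. It read 10.82, 10.38, 11.24 and 11.35 in XY FOXL2+, 10.59, 10.82, 10.64 and 10.76 in XX controls, and 10.49, 10.73, 10.48 and 10.34 in XY controls. Replicates 1, 3 and 4 of XY FOXL2+ were above every control of either sex, and replicate 2 was below all XX controls. Replicate 1 was level with the highest XX control (10.8242 against 10.8241). The change from XY controls was 0.44 (interval 0.05 to 0.82) and did not pass (adjusted p = 0.19), but without XY FOXL2+ replicate 2 it was 0.63 and passed (adjusted p = 0.0172), as with array weights (0.61, adjusted p = 0.0291). Between XY FOXL2+ and XX gonads the difference was 0.24 (interval -0.14 to 0.63, adjusted p = 0.523), and between XX and XY controls 0.19 (interval -0.20 to 0.58, adjusted p = 0.568).

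**Figure D3:**
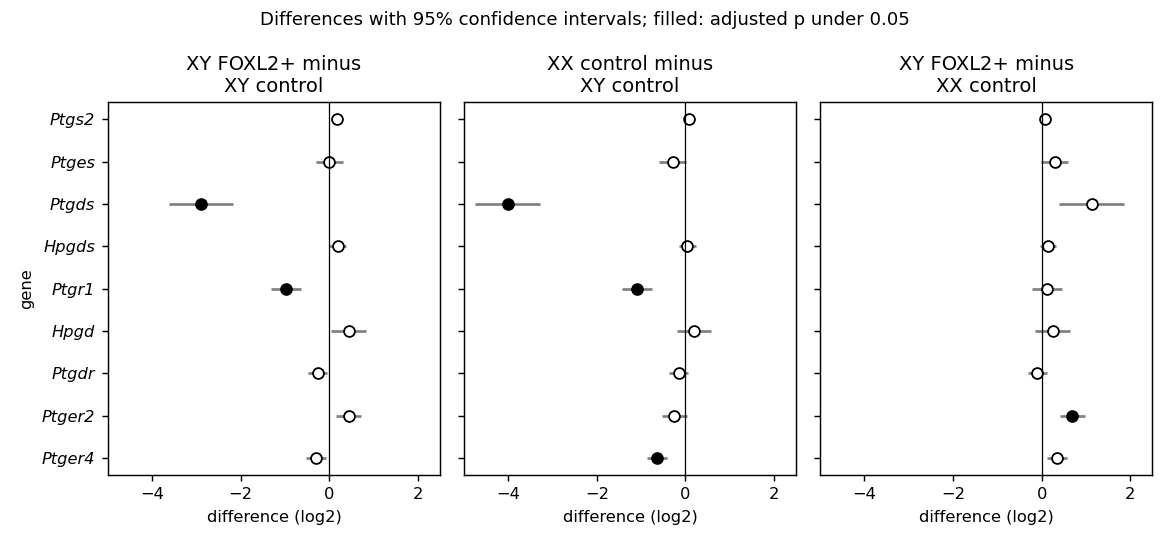
Differences (log2) of the 9 measured genes in the 3 comparisons, with 95% confidence intervals from the fit over all arrays; filled points have an adjusted p under 0.05. Ptgds (-2.89 and -4.02) and Ptgr1 (-0.98 and -1.10) are lower in XY FOXL2+ and in XX gonads than in XY controls, Ptger4 is lower in XX than in XY controls, and Ptger2 is higher in XY FOXL2+ than in XX gonads.

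Of the receptors, Ptger4 and Ptger2 had a call in 1 comparison each, and Ptgdr had none. Ptger4, a prostaglandin E receptor that raises cyclic AMP, read 6.18, 6.28, 5.87 and 6.00 in XY FOXL2+, 5.59, 5.86, 5.71 and 5.81 in XX controls, and 6.42, 6.44, 6.46 and 6.19 in XY controls. The XX arrays were below all arrays of the other groups, while XY FOXL2+ and XY control arrays overlapped. The difference between XX and XY controls was -0.64 (interval -0.86 to -0.42, SE 0.10, adjusted p = 0.000679). XY FOXL2+ differed from XY controls by -0.30 (interval -0.52 to -0.08, adjusted p = 0.112) and from XX controls by 0.34 (interval 0.12 to 0.56, adjusted p = 0.0747), and neither passed. The first passed with array weights (-0.39, adjusted p = 0.0307) and the second without XY FOXL2+ replicate 3 (0.41, adjusted p = 0.0464).

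Ptger2, another prostaglandin E receptor coupled to cyclic AMP, was higher in XY FOXL2+ than in XX gonads. It read 5.62, 5.45, 5.74 and 6.06 in XY FOXL2+, 5.12, 4.97, 4.99 and 5.05 in XX controls, and 5.23, 5.13, 5.62 and 5.16 in XY controls. All XY FOXL2+ arrays were above all XX controls, and 3 of 4 were above all XY controls, where replicate 3 was high. The difference from XX controls was 0.69 (interval 0.41 to 0.97, SE 0.13, adjusted p = 0.00862). From XY controls it was 0.43 (interval 0.15 to 0.72) and did not pass (adjusted p = 0.0668), but it passed without XY control replicate 3 (0.55, adjusted p = 0.0215), without XY FOXL2+ replicate 2 (0.52, adjusted p = 0.0337) and with arrays centred on their median (0.44, adjusted p = 0.0451). XX and XY controls differed by -0.25 (interval -0.54 to 0.03, adjusted p = 0.236) although their arrays did not overlap. The signals of Ptger2, and most of those of Ptger4, lie in or under the range of Y-linked genes in XX gonads.

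Ptgdr, the D receptor that raises cyclic AMP, passed in none of the 3 comparisons. It read 4.24, 4.64, 4.54 and 4.44 in XY FOXL2+, 4.58, 4.59, 4.44 and 4.66 in XX controls, and 4.59, 4.95, 4.64 and 4.72 in XY controls. Background control probe sets had medians of 3.99 to 4.17 on the 12 arrays, and Ptgdr read below the Y-linked genes of XX gonads on every array, so a signal of it over background is not shown. Its differences were -0.26 from XY controls (interval -0.47 to -0.05, adjusted p = 0.155) and -0.10 from XX controls (interval -0.32 to 0.11, adjusted p = 0.646) in XY FOXL2+, and -0.16 between XX and XY controls (adjusted p = 0.358).

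Counted together, 2 of 9 genes were lower in XY FOXL2+ by limma, relative to XY controls, where 4.67% of all clusters were lower. An unadjusted limma p under 0.05 was reached by 8 of the 9 genes and by 19.9% of all clusters. Of these genes Ptgds, Ptgdr, Ptgr1 and Ptger4 were lower, and Hpgds, Ptgs2, Ptger2 and Hpgd higher. Such a p was reached by 3 of 9 in XX against XY controls and by 3 of 9 in XY FOXL2+ against XX controls. The share of all clusters was not computed for those comparisons. Against XY controls 4 of the 9 genes passed with array weights, 3 lower and 1 higher. Of 65956 clusters 5035 passed at that setting, 3038 lower and 1997 higher. Without XY FOXL2+ replicate 2 again 4 of the 9 passed, 2 lower and 2 higher. Of all clusters 3851 passed then, 2452 lower and 1399 higher. The median difference was 0.0015 over the 9 genes and 0.0031 over all clusters. In 3 of 9 genes (Ptgds, Ptgr1 and Ptgs2) the 4 XY FOXL2+ arrays did not overlap the XY controls, against 12.2% of all clusters. Between XX and XY controls 3 of 9 were lower, where 10.2% of all clusters were lower, 7.17% higher and 17.4% either. The median difference was -0.25 over the 9 genes and -0.03 over all clusters. The arrays of the 2 controls did not overlap in 5 of 9 genes (Ptgds, Ptges, Ptgr1, Ptger2 and Ptger4), lower in XX in all 5, against 25.4% of all clusters in either direction, 14.8% lower and 10.5% higher.

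Against XX controls 1 of 9 genes was higher in XY FOXL2+ gonads (Ptger2), where 2.87% of all clusters were higher, 2.64% lower and 5.51% either. The median difference was 0.24 over the 9 genes and 0.03 over all clusters, and in 3 of 9 genes (Ptgs2, Ptger2 and Ptger4) all XY FOXL2+ arrays were above all XX controls, against 6.63% of clusters above, 4.82% below and 11.5% in either direction. The number of clusters called in this comparison, 3635, ran from 2012 to 5992 when single arrays were left out, and the number of genes among the 9 from 1 to 3. It was 5992 without XY FOXL2+ replicate 2, and 2012 to 2255 without XY FOXL2+ replicates 3 or 4 or XX control replicates 2, 3 or 4. Without XY FOXL2+ replicate 2 Ptgds and Ptges were called beside Ptger2. The comparisons with XY controls share those 4 arrays, as do those with XX controls, so their values stand side by side and are not independent.

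Among the XY FOXL2+ arrays, replicate 2, with the highest Foxl2 signal, was lowest of its group in 5 of 9 genes (Ptgds, Ptges, Ptgr1, Ptger2 and Hpgd) and highest in 3 (Ptgs2, Ptgdr and Ptger4). Replicate 1, which stood apart on the second principal component, was lowest in 1 gene, Ptgdr, and highest in 1, Ptgr1. Without replicate 1 the calls of Ptgds and Ptgr1 were kept. By exact two-sided permutation of 4 against 4 arrays, Ptgds and Ptgr1 had p = 0.0286, the smallest possible, both in XY FOXL2+ and in XX against XY controls. The same p was reached by Ptgs2 in XY FOXL2+ against both controls, by Ptges, Ptger2 and Ptger4 in XX against XY controls, and by Ptger2 and Ptger4 in XY FOXL2+ against XX controls.

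Of 19 further prostaglandin genes that were listed by role, 18 have a cluster. In XY FOXL2+ against XY controls 3 rose, 3 fell and 12 did not pass, where 2.46% of all clusters were higher and 4.67% lower. Ptger3, a prostaglandin E receptor that lowers cyclic AMP, rose most. It read 7.70, 7.64, 7.26 and 6.95 in XY FOXL2+, 7.20, 7.28, 7.15 and 7.02 in XX controls, and 6.43, 6.39, 5.55 and 5.93 in XY controls. Every XY FOXL2+ and every XX array was above every XY control. The rise was 1.31 in XY FOXL2+ (SE 0.20, adjusted p = 0.00141) and 1.09 in XX controls (adjusted p = 0.00183). The XY control signals lie in, near or under the range of Y-linked genes in XX gonads, so the size of the rise is not known. XY FOXL2+ and XX gonads differed by 0.23 (interval -0.21 to 0.66, adjusted p = 0.615).

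Ptgis, the prostacyclin synthase, and Tbxa2r, the thromboxane receptor, both fell. Ptgis read 8.05, 8.14, 8.19 and 8.36 in XY FOXL2+, 7.97, 7.94, 7.81 and 8.09 in XX controls, and 8.67, 8.82, 8.72 and 8.69 in XY controls. Its change from XY controls was -0.54 in XY FOXL2+ (adjusted p = 0.00243) and -0.77 in XX (adjusted p = 6.13e-05). Tbxa2r read 6.28 to 6.55 in XY FOXL2+, 6.29 to 6.46 in XX controls and 6.97 to 7.18 in XY controls. Its change was -0.65 in XY FOXL2+ (adjusted p = 0.000278) and -0.67 in XX (adjusted p = 8e-05). The Tbxa2r signals in XY FOXL2+ and XX gonads lie in or near the range of Y-linked genes in XX gonads, so the size of its fall is not known. In both Ptgis and Tbxa2r the XY FOXL2+ arrays were below every XY control.

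The remaining 3 calls in XY FOXL2+ were less stable. Pla2g4a, the phospholipase that frees arachidonic acid, read 12.26, 11.48, 12.24 and 12.30 in XY FOXL2+, 11.22, 11.53, 11.21 and 11.45 in XX controls, and 11.56, 11.46, 11.30 and 11.32 in XY controls. Replicate 2 of XY FOXL2+ lay within the controls and the other 3 above both of them. It was higher by 0.66 than in XY controls (adjusted p = 0.0292) and by 0.72 than in XX controls (adjusted p = 0.0239). The first call ended without any 1 of 6 of the 12 arrays (XY FOXL2+ replicates 1, 3 or 4 or XY control replicates 2, 3 or 4, adjusted p up to 0.0873). The second ended without any 1 of 5 (XY FOXL2+ replicates 3 or 4 or XX control replicates 1, 3 or 4, up to 0.0808), and with the replicate number as a block the first had an adjusted p of 0.0561.

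Zadh2, a prostaglandin reductase also called Ptgr3, read 9.36, 8.70, 9.48 and 9.57 in XY FOXL2+, 8.71 to 9.15 in XX controls and 8.45 to 8.72 in XY controls. It rose by 0.64 (adjusted p = 0.0376), a call that ended without any 1 of 9 arrays (all but XY FOXL2+ replicate 2 and XX control replicates 2 and 3, adjusted p up to 0.114) and with the replicate number as a block (0.0648). Abcc4, which exports prostaglandins and other anions, read 8.38, 7.99, 8.06 and 8.35 in XY FOXL2+, 7.98 to 8.22 in XX controls and 8.52, 8.68, 9.11 and 9.73 in XY controls. It fell by 0.81 (adjusted p = 0.0344), a call lost without any 1 of 6 arrays (XY control replicate 3, XY FOXL2+ replicates 2 or 3, XX control replicates 1, 2 or 4, adjusted p up to 0.0942) and after quantile normalization (0.0769). Pla2g4a (0.0874), Zadh2 (0.099) and Abcc4 (0.113) lost their calls with only the 2 groups in the fit.

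**Figure D4:**
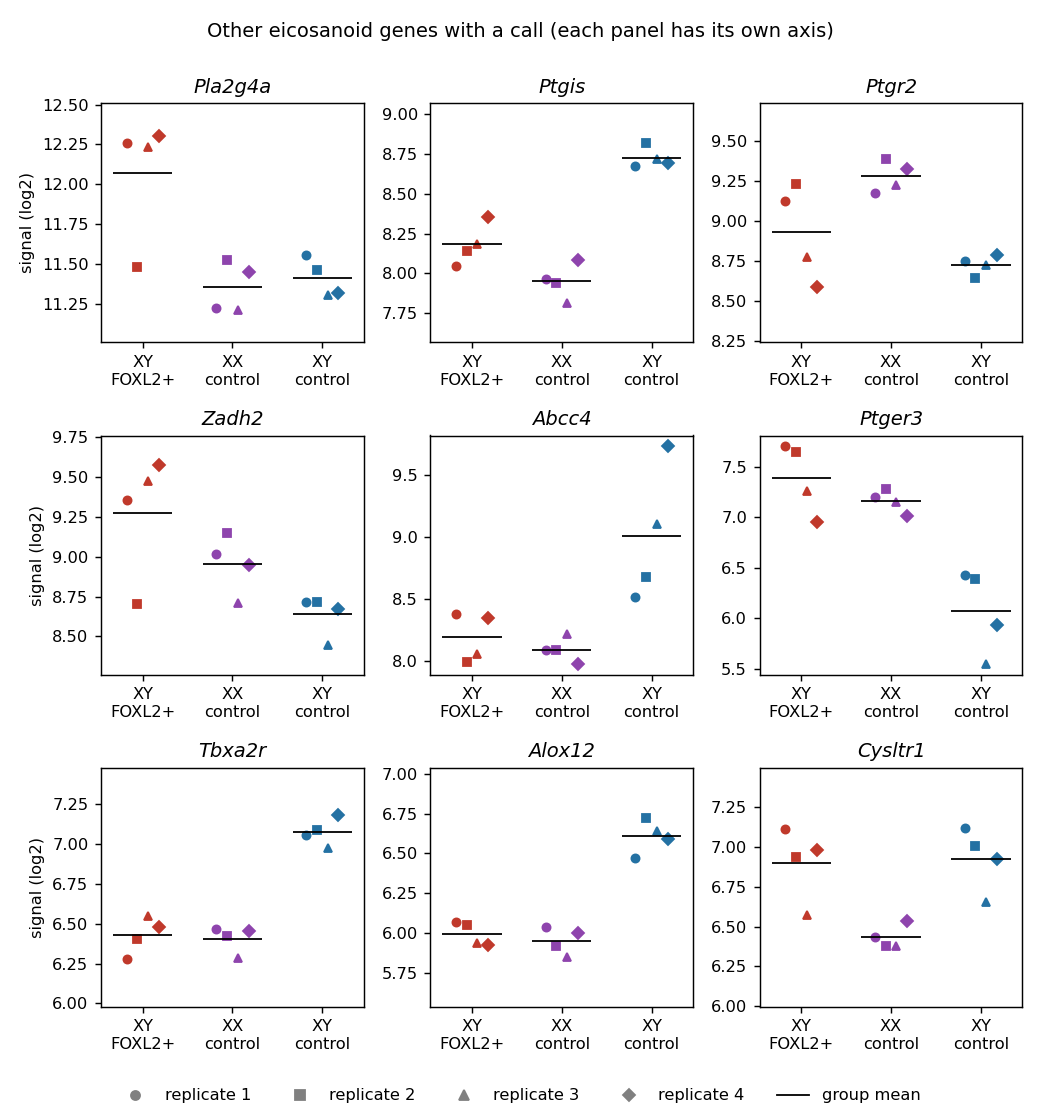
Signal (log2) of the 9 further eicosanoid genes with a call in XY FOXL2+ or in XX gonads against XY controls, on each array of the 3 groups; points are single arrays and lines are group means. Ptger3 reads 6.95 to 7.70 in XY FOXL2+ and 5.55 to 6.43 in XY controls, while Ptgis, Tbxa2r and Alox12 lie below the XY controls on every XY FOXL2+ and every XX array.

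Between XX and XY controls 2 of these 18 genes were higher and 3 lower, where 7.17% of all clusters were higher and 10.2% lower. Besides Ptger3, Ptgis and Tbxa2r the genes called were Ptgr2, a prostaglandin reductase, higher by 0.56 (adjusted p = 0.00833), and Abcc4, which fell by 0.91 (adjusted p = 0.00832). Ptgr2 read 9.13, 9.23, 8.77 and 8.59 in XY FOXL2+, 9.18 to 9.39 in XX controls and 8.64 to 8.79 in XY controls. Replicates 1 and 2 of XY FOXL2+ were thus at or near the XX range and replicates 3 and 4 at or near the XY range. Its change in XY FOXL2+ from XY controls was 0.20 (interval -0.07 to 0.48, adjusted p = 0.426). The median difference over the 18 genes was 0.03 in XY FOXL2+ and -0.04 in XX controls, each against XY controls. Against XX controls 1 of the 18 was higher in XY FOXL2+, Pla2g4a, where 2.87% of all clusters were higher. The median over the list was 0.09.

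Of 10 genes of the leukotriene and lipoxygenase branch, which competes for the same fatty acid, 9 have a cluster. In XY FOXL2+ 1 of the 9, Alox12, a lipoxygenase, fell against XY controls, where 4.67% of all clusters were lower. Alox12 read 5.92 to 6.07 in XY FOXL2+, 5.85 to 6.04 in XX controls and 6.47 to 6.72 in XY controls. Its change was -0.61 in XY FOXL2+ (adjusted p = 0.000267) and -0.65 in XX (adjusted p = 5.92e-05). The signals in XY FOXL2+ and XX gonads lie within the range of Y-linked genes in XX gonads, so the size of the fall is not known. In XX against XY controls 2 of the 9 were lower, where 10.2% of all clusters were lower. The second gene lower in XX was Cysltr1, a leukotriene receptor, at -0.49 (adjusted p = 0.0122, and 0.0518 after quantile normalization). Cysltr1 read 7.11, 6.94, 6.57 and 6.98 in XY FOXL2+, 6.38 to 6.53 in XX controls and 6.66 to 7.12 in XY controls. Its signals in XX controls lie in or near the range of Y-linked genes there. Cysltr1 differences from XX controls are thus of unknown size. It was 0.47 higher in XY FOXL2+ than in XX controls (adjusted p = 0.0416), a call that ended without any 1 of 9 arrays (adjusted p up to 0.113) and stayed without XY control replicates 1 or 3 or XY FOXL2+ replicate 3. The medians over the 9 genes were 2e-04 in XY FOXL2+ and -0.02 in XX controls against XY controls.

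Markers of blood cells, which can make and sense these lipids, were counted as well. Of 8 macrophage markers 4 were higher in XY FOXL2+ relative to XY controls, and 2 relative to XX controls. Mean list levels were 7.17 to 7.26 in XY FOXL2+, 6.80 to 7.01 in XX controls and 6.77 to 6.98 in XY controls. Of 7 endothelial cell markers 2 were higher in XY FOXL2+ relative to XY controls and 4 relative to XX controls (Cldn5, Tek, Cdh5 and Tie1, by 0.39 to 0.87). Kdr went the other way relative to XX controls (-0.47, with group means of 11.82 and 12.28) and did not pass. The endothelial list levels had medians of 10.42 in XY FOXL2+, 10.03 in XX controls and 10.09 in XY controls. XY FOXL2+ and XY control arrays overlapped (lowest 10.26 in XY FOXL2+, highest 10.29 in XY controls). The part of either list in the differences of Ptger2, Pla2g4a or Hpgd was not tested. By limma 0 of 7 mast cell markers passed in XY FOXL2+ against either control, with 0 at an unadjusted p under 0.05 against XY controls and 1 against XX controls. Of 5 megakaryocyte and platelet markers 0 passed against either control, with 1 at an unadjusted p under 0.05 against XY controls and 0 against XX controls. In lists this short, counts of 0 calls lie near the shares over all clusters. Germ cell markers had 2 of 7 lower in XY FOXL2+, relative to XY controls. List levels were 10.31 to 11.40 in XY FOXL2+, 10.74 to 11.32 in XX controls and 11.26 to 11.90 in XY controls, and their part in these differences was not tested either.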

How the data were processed

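The deposited values are array signals that the authors had already processed to a log scale, and they were read as log2 since they span 2.54 to 19.49. For the base, background correction, summarization, normalization and genome build, the authors' choices were not given in the sources used here. Another base would rescale every difference but no test. Per the labels' protocols, 100 ng of total RNA was amplified and labelled. Of 72688 entries 6732 control probe sets were left out and 65956 clusters tested, with no filter on low signal; 31258 clusters have 1 gene symbol, updated through RefSeq, 1492 several (unnamed) and 33206 none. No detection calls were used. Precision is limited by 4 arrays per group.

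All 12 arrays entered 1 fit (limma 3.58.1 under R 4.3.3, with moderated variances that follow signal intensity), which had 9 residual degrees of freedom. P-values are two-sided, adjusted by Benjamini-Hochberg over all clusters, with a threshold of 0.05. Confidence intervals are 95% and unadjusted. Values of each gene were also compared by exact permutation of 4 against 4 arrays (70 assignments, smallest two-sided p 0.0286). The fit was tested on simulated data. Alternatives were quantile normalization, median centring, only the 2 groups compared, array weights, no intensity trend, only clusters at or above the median signal, the replicate number as a block, and leaving out each of the 12 arrays. The genes and lists were chosen with earlier results of these data known. All 9 measured genes are named, the further lists only where a gene passed in XY FOXL2+ or XX against XY controls, and the 3 nearest genes in pattern for those of the 9 that passed in XY FOXL2+ against XY controls. The motif letters were chosen after the Ptgds window had been read. The windows before the start are from RefSeq, build GRCm38.p6, where all 10 genes have one. Those of Ptgds, Hpgds, Ptgs1 and Ptges lie wholly inside the annotated extent of the gene.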

Additional observations from a re-analysis of the deposited data

Results flagged for a closer look

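Within the groups of 4 arrays, 54 groups were searched for an array that stands far from the other 3, and 3 were found. Chance alone gives about 1 in 20 groups, so 3 of 54 is near what chance gives. Ptger4 read 6.191 on XY control replicate 4, against 6.42 to 6.46 on the other XY controls. Pla2g4a read 11.48 on XY FOXL2+ replicate 2, against 12.24 to 12.30 on the other XY FOXL2+ arrays. Replicate 2 was also lowest of its group in Ptgds, Ptges, Ptgr1, Ptger2 and Hpgd, and highest in Ptgs2, Ptgdr and Ptger4. Zadh2 read 8.448 on XY control replicate 3, against 8.67 to 8.72 on the other XY controls.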

How the results depend on the processing

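Over the 9 genes and 3 comparisons, 484 of 501 values under an alternative kept direction and side of the threshold, 12 gained a call, 5 took the other sign and 0 lost a call. Clusters called in XY FOXL2+ against XY controls numbered 2700 with only these groups in the fit and 5035 with array weights. With single arrays left out they numbered 3124 to 5392, lowest without XY control replicate 3. Against XX controls they numbered 1916 with only these groups, 6752 with array weights and 2012 to 5992 with single arrays left out. Of the 9 genes, 4 were called in XY FOXL2+ against XY controls with array weights and 2 to 4 with single arrays left out. Against XX controls these counts were 2 and 1 to 3, and 0 among clusters at or above the median signal, where Ptger2 is left out with Ptgs2, Ptgdr and Ptger4. Between XX and XY controls 3 to 4 were called with single arrays left out, beside 8986 to 13714 of all clusters. Signs that changed belonged to differences near 0: Ptges in XY FOXL2+ against XY controls ran from -0.11 to 0.17 with single arrays left out, Hpgds between XX and XY controls from -0.0031 to 0.0774, and Cysltr1 in XY FOXL2+ against XY controls from -0.12 to 0.0836, with 0.0217 after quantile normalization. Against XX controls Tbxa2r ran from -0.0185 to 0.0717 and was -0.0287 after quantile normalization and -0.0285 after median centring, and Alox12 was -0.0066 and -0.0068 under the same settings. The causes were not tested. Higher calls were 34.5% of all calls in XY FOXL2+ against XY controls and 45.12% after quantile normalization, 41.25% and 53.18% in XX against XY controls, and 52.02% in XY FOXL2+ against XX controls with 41.49% after median centring. With the replicate block 4356 clusters were called in XY FOXL2+ against XY controls and 10905 in XX against XY controls, no call of the 9 genes changed, and Ptgds had an adjusted p of 0.000925. Whether the replicate numbers pair the samples is not known. Deviations correlated by over 0.1 in 2 of 12 same-numbered pairs (-0.091 to 0.179) and in 2 of 36 others (-0.129 to 0.202). So few pairs cannot decide it. None of the 9 genes has a second cluster, so that alternative gave no value.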
